A study of Mus musculus with 6 samples.

Results

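The genes described here encode proteins that switch off, or are reported to restrain, signalling from Janus kinases (JAKs) to STAT transcription factors. They are the 4 non-receptor tyrosine phosphatases Ptpn1, Ptpn2, Ptpn6 and Ptpn11 and the 4 protein inhibitors of activated STAT, Pias1 to Pias4. They were taken by symbol from the authors' table of 39179 genes, and all 8 were among the 17021 genes the authors tested. The cells were B16F10.9, a pigmented melanoma line from C57BL/6 mice. Of 6 RNA sequencing libraries, 3 came from cells grown for 24 h in medium with mouse IFN-gamma (recombinant, 50 µg/ml as labelled) and 3 from untreated cells. The unit of that dose is in doubt, as cultured cells are usually given IFN-gamma in ng/ml. No transgene, deletion or other agent is labelled in either group.

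Binding of IFN-gamma to its receptor activates JAK1 and JAK2, which phosphorylate STAT proteins on tyrosine, and phosphorylated STATs enter the nucleus and drive interferon-responsive genes. Tyrosine phosphatases remove these phosphates. PTP1B (the product of Ptpn1) acts on JAK2 and TYK2 from the surface of the endoplasmic reticulum. TC-PTP (Ptpn2) acts on JAK1 and JAK3 and, in the nucleus, on STATs. In mouse melanoma, loss of Ptpn2 is known to heighten the response of tumour cells to IFN-gamma. SHP1 (Ptpn6) and SHP2 (Ptpn11) carry SH2 domains through which they dock on phosphorylated receptors and adaptors. PIAS proteins bind STATs and other transcription factors and act as ligases for SUMO, a small protein attached to nuclear factors.

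Levels are in FPKM, which corrects fragment counts for the length of the transcript and the size of the library and is meant to let levels be compared between genes. The ratios between groups still moved with transcript length, as given below. The authors' table holds 1 FPKM value per gene and group, with the 3 libraries of a group merged into it. No value per library was used, so no SD, n or overlap between groups can be given, and the depth of the libraries is unknown. A gene is said to have risen or fallen where the authors' deposited table gives it a q-value under 0.05. Log2 ratios are those of IFN-gamma over untreated cells, without a pseudocount. The labels state that cells were seeded in triplicate and not whether the cultures were otherwise separate, so the spread behind these q-values may be technical.

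The melanocyte genes on the marker list were high in both groups, with Pmel at 2669.5 FPKM in IFN-gamma-treated cells and 2871 FPKM in untreated cells. Of the 7 melanocyte markers 4 rose (57.1%, against 23.4% of all tested genes), namely Mitf, Sox10, Tyrp1 and Mlana. Tyr fell (14.3%, against 20.9% of all tested genes), and Dct and Pmel were not called. The 8 leucocyte markers summed to 4.19 FPKM in IFN-gamma-treated cells and 3.85 FPKM in untreated cells. Of these Cd68 rose, to 2.85 FPKM in IFN-gamma-treated cells, against 1.92 FPKM in untreated cells (q = 0.0199 in the authors' deposited table). Itgam fell, to 0.013 FPKM in IFN-gamma-treated cells, against 0.141 FPKM in untreated cells (q = 0.0217 in the authors' deposited table). Lyz2, at 1.30 FPKM in IFN-gamma-treated cells and 1.65 FPKM in untreated cells, was not called. The T cell gene Cd3e was listed at 0 in IFN-gamma-treated cells and at 0.00754 FPKM in untreated cells. The 4 fibroblast markers summed to 1.46 FPKM in IFN-gamma-treated cells and 0.427 FPKM in untreated cells. Among them Lum rose, to 1.29 FPKM in IFN-gamma-treated cells, against 0.0664 FPKM in untreated cells. Pdgfra fell, to 0.0175 FPKM in IFN-gamma-treated cells, against 0.149 FPKM in untreated cells (q = 0.000187 in the authors' deposited table). The 4 epithelial markers summed to 0.452 FPKM in IFN-gamma-treated cells and 0.59 FPKM in untreated cells, and the 3 endothelial markers to 0.0169 FPKM in IFN-gamma-treated cells and 0.0322 FPKM in untreated cells.

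The sequences upstream of the RefSeq starts of 4 of these genes are shown because 3 of them (Ptpn6, Ptpn11 and Pias1) rose after IFN-gamma and the fourth, Ptpn1, was not called. Each is the stretch of 250 bases before the gene's start in RefSeq (GRCm38.p6), read 5′ to 3′ along the gene, with capitals marking GC boxes (GGGCGG on either strand, overlapping copies counted separately). GENCODE M21 places the start of Pias1 farther upstream, at 62987924, so that its window lies inside the GENCODE gene, while the authors' locus for Pias1 ends at the RefSeq start, 62980879. The GENCODE start of Ptpn1, 167932057, likewise lies upstream of its window.
Ptpn6 (chr6:124738710-124738959, minus strand): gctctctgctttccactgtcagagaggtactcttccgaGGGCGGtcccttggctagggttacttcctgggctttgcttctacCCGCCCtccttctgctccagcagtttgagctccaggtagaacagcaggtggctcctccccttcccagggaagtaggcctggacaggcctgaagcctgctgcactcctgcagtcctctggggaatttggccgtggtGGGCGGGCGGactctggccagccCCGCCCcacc
Ptpn11 (chr5:121191398-121191647, minus strand): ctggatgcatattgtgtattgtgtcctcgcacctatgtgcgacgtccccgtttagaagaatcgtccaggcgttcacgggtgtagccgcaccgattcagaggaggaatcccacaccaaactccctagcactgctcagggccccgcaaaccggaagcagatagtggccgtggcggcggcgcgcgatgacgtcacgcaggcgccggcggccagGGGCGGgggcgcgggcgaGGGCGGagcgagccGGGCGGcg
Pias1 (chr9:62980880-62981129, minus strand): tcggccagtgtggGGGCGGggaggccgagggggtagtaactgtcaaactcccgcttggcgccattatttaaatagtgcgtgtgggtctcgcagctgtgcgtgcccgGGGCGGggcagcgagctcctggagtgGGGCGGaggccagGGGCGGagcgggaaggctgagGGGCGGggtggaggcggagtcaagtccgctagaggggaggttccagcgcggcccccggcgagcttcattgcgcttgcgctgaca
Ptpn1 (chr2:167932077-167932326, plus strand): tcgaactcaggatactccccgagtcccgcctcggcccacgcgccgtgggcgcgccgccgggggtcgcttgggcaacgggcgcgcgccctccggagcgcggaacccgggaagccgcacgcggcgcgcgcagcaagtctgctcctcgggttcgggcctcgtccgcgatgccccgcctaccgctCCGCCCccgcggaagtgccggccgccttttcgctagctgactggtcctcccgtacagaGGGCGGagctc
Windows were on hand for 5 of the 8 genes (6 windows, as Pias3 has 2). None of the 6 held the STAT-type motif TTCNNNGAA or the core of the interferon-stimulated response element (ISRE) on either strand, which 7.02% and 2.98% of 32851 RefSeq windows of the same length do. GC boxes were in all 6 windows, against 32.7% of all windows, but the 6 windows were also rich in G and C, at 56.0% to 75.2% against a median of 52.4%. There were 5 in Ptpn6 (a pair of them overlapping), 5 in Pias1, 3 in Ptpn11 and 2 in Ptpn1, and 4.09% of all windows hold at least 4. The GC box was chosen after the windows had been seen, and a match describes the letters in the window only.

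After IFN-gamma 4 of the 8 genes rose, 0 fell and 4 were not called. Cuffdiff, the authors' tool, gave no fall among the 8 at an unadjusted p under 0.05 either (0 genes). Among all tested genes 23.4% rose and 20.9% fell. The rises were those of Ptpn2, Ptpn6, Ptpn11 and Pias1, by between 1.66-fold and 2.05-fold. With the median of genes of like transcript length taken out, the log2 ratios of the 4 spread from 0.28 (Ptpn11) to 1.15 (Ptpn6). The same 4 were called at q under 0.01, where 19.5% of tested genes rose and 17.2% fell, and with p-values adjusted anew over genes of at least 1 FPKM, where 28.4% rose and 25.8% fell. Where a 2-fold change was required too, Ptpn6 alone was called, and 9.69% of tested genes rose and 8.88% fell. The median log2 ratio of the 8 was 0.49, against 0.05 over 12417 tested genes that reached 1 FPKM in a group and were above 0 in both. In RNA from whole cultures, a change in the number of cells in some state and a change in RNA per cell cannot be told apart.

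**Figure D1:**
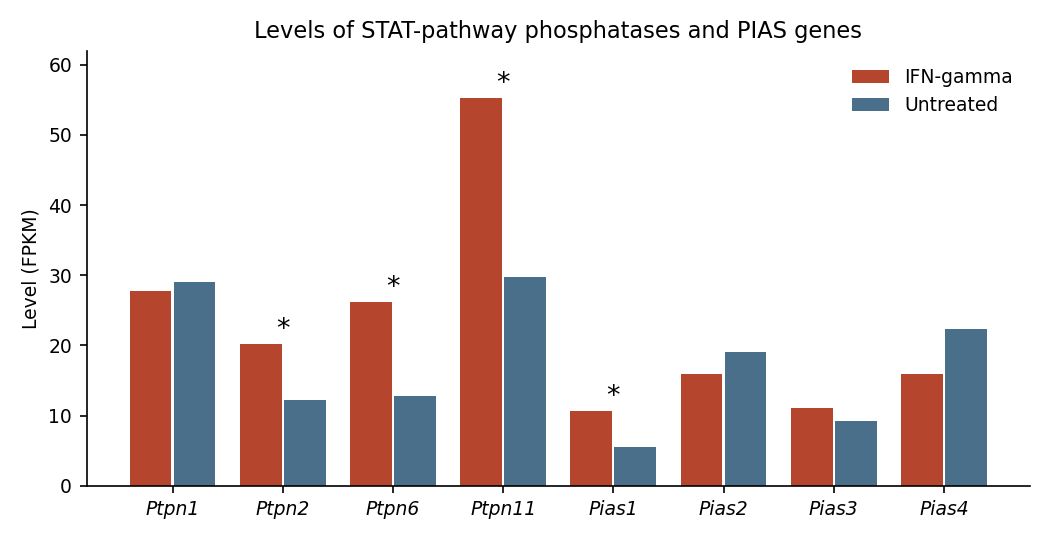
Level in FPKM (y axis, the authors' single value per group, hence no error bars) of the 8 genes in IFN-gamma-treated cells (left bar) and untreated cells (right bar); an asterisk marks a q-value under 0.05 in the authors' table. Ptpn11 was the highest in both groups, at 55.3 FPKM in IFN-gamma-treated cells and 29.8 FPKM in untreated cells, and Pias1 the lowest, at 10.7 FPKM in IFN-gamma-treated cells and 5.50 FPKM in untreated cells.

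Ptpn11, which encodes SHP2, was the most abundant of the 8 in both groups. Its level was 55.3 FPKM in IFN-gamma-treated cells, against 29.8 FPKM in untreated cells. SHP2 is present in most tissues and is best known for relaying growth factor signals to RAS and ERK, besides its reported action on STATs. The log2 ratio of Ptpn11 was 0.89, or 0.28 with the median of genes of like length taken out, with a test score of 4.03 and q = 0.000187 in the authors' deposited table. That q is the lowest the table holds, and 4545 genes share it. Ptpn11 lies on chromosome 5 (121130533 to 121191397, minus strand, GRCm38).

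Ptpn6, which encodes SHP1, had the largest ratio of the 8. It stood at 26.2 FPKM in IFN-gamma-treated cells, against 12.8 FPKM in untreated cells, a log2 ratio of 1.04. SHP1 is known chiefly as a phosphatase of blood cells, and the leucocyte marker Ptprc (CD45) was listed at 0.00849 FPKM in IFN-gamma-treated cells and at 0.0954 FPKM in untreated cells. The summed level of the 8 leucocyte markers, given above, was 4.19 FPKM in IFN-gamma-treated cells and 3.85 FPKM in untreated cells, and their part in the level of Ptpn6 was not tested. Its test score of 1.57 in the authors' deposited table was the lowest of the 4 rises, with q = 0.00234, while its ratio was the highest. The authors list 11 transcripts for Ptpn6, 4 each for Ptpn2 and Ptpn11 and 1 for Pias1, whose score of 4.38 was the highest. The part of transcript number in these scores was not tested. Ptpn6 lies on chromosome 6 (124720707 to 124738714, minus strand, GRCm38) and shares its locus in the table with the non-coding Gm20531 on the opposite strand. The library kit keeps no strand information, so at such loci fragments of either strand may be counted for both genes. Gm20531 was listed at 0.797 FPKM in IFN-gamma-treated cells and 0.485 FPKM in untreated cells, and adding it to Ptpn6 left a log2 ratio of 1.03.

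Ptpn2, the gene of TC-PTP, rose by the smallest ratio of the 4. Its level was 20.1 FPKM in IFN-gamma-treated cells, against 12.2 FPKM in untreated cells. The log2 ratio was 0.73, with a test score of 3.30 and q = 0.000187 in the authors' deposited table. Ptpn2 lies on chromosome 18, as does Pias2.

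Ptpn1, the gene of PTP1B, is the nearest relative of Ptpn2, and its levels were nearly the same in both groups. It was listed at 27.8 FPKM in IFN-gamma-treated cells and 29.0 FPKM in untreated cells, a log2 ratio of -0.06 (q = 0.849 in the authors' deposited table). With no error per gene, no interval can be put on this difference. Ptpn1 was second to Ptpn11 in both groups, but the distance between them differed. They stood at 27.8 FPKM and 55.3 FPKM in IFN-gamma-treated cells, and at 29.0 FPKM and 29.8 FPKM in untreated cells. The 4 phosphatase genes summed to 129 FPKM in IFN-gamma-treated cells, against 83.7 FPKM in untreated cells. Ptpn11 made up 42.7% of that sum in IFN-gamma-treated cells and 35.6% in untreated cells, and Ptpn1 made up 21.5% in IFN-gamma-treated cells and 34.6% in untreated cells. The share of Ptpn6 was 20.2% in IFN-gamma-treated cells and 15.2% in untreated cells, and that of Ptpn2 was 15.6% in IFN-gamma-treated cells and 14.5% in untreated cells.

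The PIAS genes differed among themselves. Pias1, whose product is known for blocking the binding of a STAT to DNA, rose to 10.7 FPKM in IFN-gamma-treated cells, against 5.50 FPKM in untreated cells. Its log2 ratio was 0.95, or 0.56 with the median of genes of like length taken out, with q = 0.000187 in the authors' deposited table. Pias1 lies on chromosome 9 (62878368 to 62987924, minus strand, GRCm38), and even after its rise it remained the lowest of the 8, just under Pias3.

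The other PIAS genes were not called, and their ratios had both signs. Pias3, whose product binds STAT3 and, in melanocytes and mast cells, the lineage factor MITF, was listed at 11.1 FPKM in IFN-gamma-treated cells and 9.29 FPKM in untreated cells (log2 ratio 0.25, q = 0.305 in the authors' deposited table). It shares its locus in the table with Nudt17 on the opposite strand, which fell to 0.982 FPKM in IFN-gamma-treated cells, against 2.49 FPKM in untreated cells. With both genes added up, the log2 ratio at that locus was 0.03. In GENCODE M21 Nudt17 spans 96706067 to 96708562 and Pias3 ends at 96706070. The genes thus overlap only at their ends, and the sum joins largely separate genes. Pias2 was listed at 15.97 FPKM in IFN-gamma-treated cells and 19.0 FPKM in untreated cells (log2 ratio -0.25, q = 0.122 in the authors' deposited table). Pias4, also called PIASy and known as a corepressor of STAT-driven genes, was listed at 15.9 FPKM in IFN-gamma-treated cells and 22.3 FPKM in untreated cells. Its log2 ratio was -0.49, with q = 0.325 in the authors' deposited table, although that of Pias2, which was smaller in size, had the lower q. Unlike the phosphatases, the PIAS genes together kept close to the same level, with a sum of 53.6 FPKM in IFN-gamma-treated cells and 56.1 FPKM in untreated cells. Pias1 made up 19.9% of the sum in IFN-gamma-treated cells and 9.81% in untreated cells, and Pias4 made up 29.7% in IFN-gamma-treated cells and 39.8% in untreated cells.

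**Figure D2:**
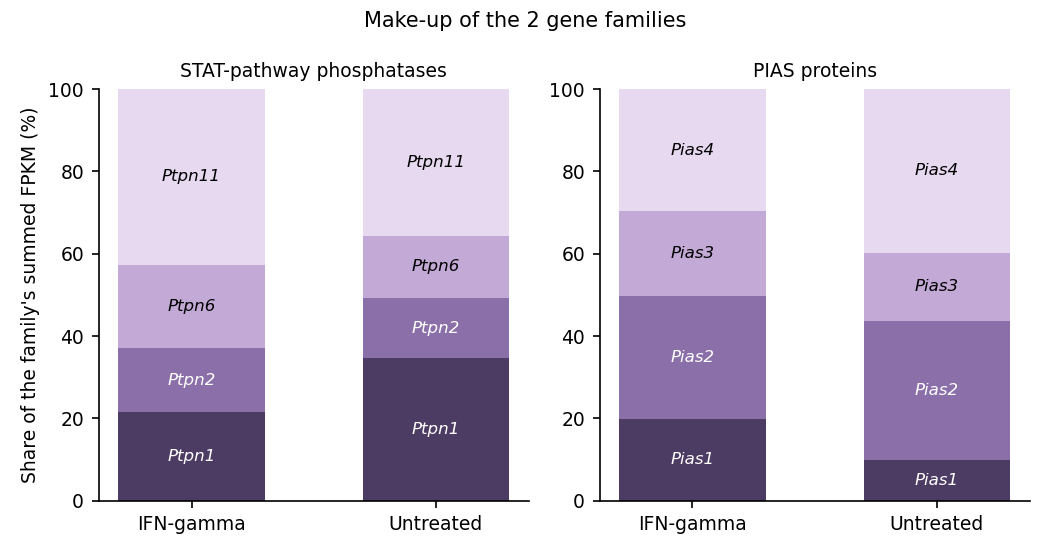
Share (%) of each gene in the summed FPKM of its family, for the 4 phosphatases (left panel) and the 4 PIAS genes (right panel), with IFN-gamma-treated cells left of untreated cells. Ptpn11 and Pias1 took larger shares in IFN-gamma-treated cells (42.7% and 19.9%) than in untreated cells (35.6% and 9.81%), and Ptpn1 and Pias4 smaller ones. The median of genes of like length was not taken out of these shares.

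By level the 8 genes ran in the order Ptpn11, Ptpn1, Ptpn6, Ptpn2, Pias2, Pias4, Pias3 and Pias1 in IFN-gamma-treated cells. In untreated cells the order was Ptpn11, Ptpn1, Pias4, Pias2, Ptpn6, Ptpn2, Pias3 and Pias1. All 4 phosphatases thus stood above all 4 PIAS genes in IFN-gamma-treated cells, whereas Ptpn6 and Ptpn2 stood below Pias4 and Pias2 in untreated cells. Whether neighbours in these orders differ beyond their spread cannot be said without values per library. The median of genes of like length was not taken out of these levels.

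**Figure D3:**
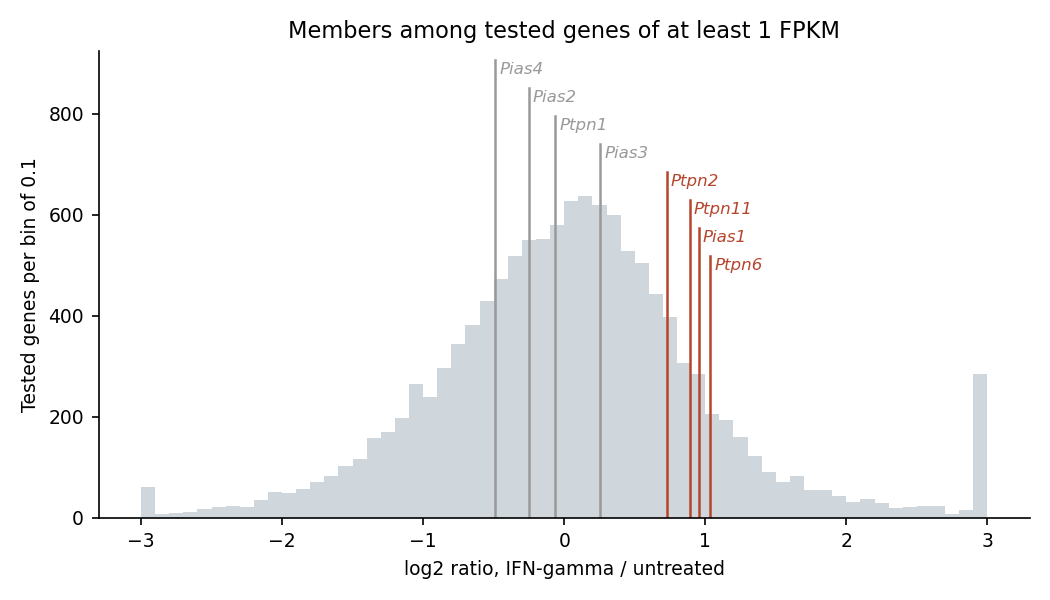
Number of tested genes (y axis) per bin of 0.1 in log2 ratio (x axis, IFN-gamma over untreated) among genes that reached 1 FPKM in a group, with the 8 members as lines (red for a rise, grey for no call); the end bins also hold the 325 genes beyond the axis. The 4 rises, from 0.73 to 1.04, lie on the right shoulder of the distribution and not in its tail.

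Set against the other genes, the rises were moderate. Of the 12800 tested genes that reached 1 FPKM in a group, 79.2% had a lower log2 ratio than Ptpn2 and 86.6% a lower one than Ptpn6. Several genes of signalling proteins that these phosphatases act on rose far more. Jak1 stood at 105 FPKM in IFN-gamma-treated cells, against 19.1 FPKM in untreated cells, a 5.52-fold difference. Stat2 and Stat3 had log2 ratios of 4.68 and 2.68. Of 12 tested JAK, STAT and IFN-gamma receptor genes 8 rose (66.7%, against 23.4% of all tested genes) and 1 fell (8.33%, against 20.9%). Among the SOCS genes, whose products inhibit JAKs or mark signalling proteins for degradation, 4 of 8 rose (50.0%) and 0 fell. Socs1 and Socs3 did so with log2 ratios of 6.03 and 3.52, and Cish and Socs7 with ratios of 1.04 and 1.01, near that of Ptpn6. With the median of genes of like length taken out, Cish and Socs7 were at 0.80 and 0.47, below Ptpn6 at 1.15. Cish was not called at q under 0.01.

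Transcript length moved with the ratio across 12294 tested genes that reached 1 FPKM in a group, were above 0 in both and had a known length. The median log2 ratio was -0.38 over 3076 genes of at most 1868 nt and 0.44 over 3076 genes of at least 4611 nt. Ptpn11 has a transcript of 7442 nt and Pias1 one of 5564 nt, while those of Ptpn6 and Ptpn2 reach 2308 nt and 2667 nt. With the median of genes of like length taken out, the log2 ratios of Ptpn11 and Pias1 were thus lower. That of Ptpn6 was 1.15 in place of 1.04, and that of Ptpn2 was 0.90 in place of 0.73. Among the genes without a call, Ptpn1 moved farthest, to -0.27. No sign changed.

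**Figure D4:**
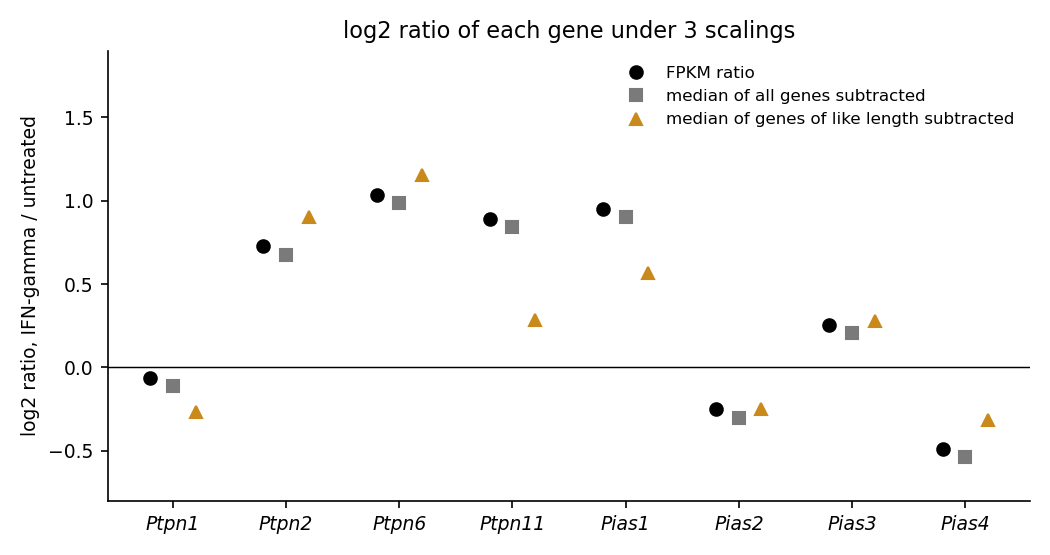
Log2 ratio (y axis, IFN-gamma over untreated) of each of the 8 genes as the FPKM ratio (circles), with the median of all tested genes of at least 1 FPKM subtracted (squares) and with the median of genes of like transcript length subtracted (triangles). The 4 rises stayed above 0 under each, and Ptpn11 fell lowest of them under the last, at 0.28.

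Other tyrosine phosphatases rose as well, so that rises were not particular to the 3 member phosphatases that rose (Ptpn2, Ptpn6 and Ptpn11). Of 10 tested non-receptor phosphatases outside the 4 members, 6 rose (60.0%, against 23.4% of all tested genes) and 0 fell. Their median log2 ratio was 0.92, against 0.81 for the 4 member phosphatases, among them Ptpn1, which was not called. Ptpn21 stood at 14.9 FPKM in IFN-gamma-treated cells, against 5.24 FPKM in untreated cells, and Ptpn18 at 9.37 FPKM in IFN-gamma-treated cells, against 3.94 FPKM in untreated cells. Ptpn23, a phosphatase-like protein of endosomal sorting, stood at 19.2 FPKM in IFN-gamma-treated cells, against 8.36 FPKM in untreated cells, and Ptpn9 at 16.3 FPKM in IFN-gamma-treated cells, against 8.08 FPKM in untreated cells. Of 8 tested receptor phosphatases 5 rose (62.5%) and 0 fell. Of these rises 3 were at 1 FPKM or more: Ptprk, Ptprj and Ptprm, at log2 ratios of 1.54, 1.31 and 0.84. The longest transcripts of the tested genes had a median of 4724 nt on the non-receptor list and 6516 nt on the receptor list. With the median of genes of like length taken out, the list medians were 0.58 and 0.31, against 0.59 for the 4 member phosphatases.

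Most genes for phosphatases of other classes that are reported to act on JAK or STAT proteins went the other way. Of 6 tested genes 5 fell (83.3%, against 20.9% of all tested genes) and 0 rose. With a 2-fold change required too, 1 fall remained, that of Dusp2. Dusp3 was not called, at 52.1 FPKM in IFN-gamma-treated cells and 46.1 FPKM in untreated cells (log2 ratio 0.18). Dusp2, a dual-specificity phosphatase of MAP kinases, stood at 3.80 FPKM in IFN-gamma-treated cells, against 9.48 FPKM in untreated cells. Ppp2ca and Ppp2cb, the catalytic subunits of protein phosphatase 2A, had log2 ratios of -0.66 and -0.63. Dusp22 had one of -0.50.

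Of 12 tested genes for docking partners through which SHP1 and SHP2 reach their substrates, 4 rose (33.3%, against 23.4% of all tested genes) and 0 fell. Their median log2 ratio was 0.18, or 0.09 with the median of genes of like length taken out, and 1 of the 4 rose at least 2-fold. The adaptor gene Gab2 stood at 9.16 FPKM in IFN-gamma-treated cells, against 2.93 FPKM in untreated cells, and Gab1 at 4.61 FPKM in IFN-gamma-treated cells, against 2.34 FPKM in untreated cells. Frs2, an adaptor of fibroblast growth factor receptors, had a log2 ratio of 0.58.

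In the SUMO system that PIAS ligases serve, the lists differed. All 6 tested genes for SUMO itself and for its activating and conjugating enzymes fell, where 20.9% of tested genes did. Uba2, a subunit of the activating enzyme, stood at 65.5 FPKM in IFN-gamma-treated cells, against 132 FPKM in untreated cells. Sumo3 stood at 140.4 FPKM in IFN-gamma-treated cells, against 260.2 FPKM in untreated cells, and Sumo2 had a log2 ratio of -0.62. The longest transcript is 1051 nt for Sumo2, 2579 nt for Uba2 and 2630 nt for Sumo3. With the median of genes of like length taken out, the log2 ratio was -0.09 for Sumo2, but -0.84 for Uba2 and -0.74 for Sumo3. Of 8 other SUMO ligase genes 3 rose (37.5%, against 23.4% of all tested genes) and 0 fell. Among the 3 were the PIAS-like Zmiz2 at a log2 ratio of 0.56 and the nuclear pore gene Ranbp2 at 0.47. With the median of genes of like length taken out, that of Zmiz2 was 0.38 and that of Ranbp2 was -0.15. The list median was then -0.01 in place of 0.35. Of 8 SUMO protease genes Senp7 rose (log2 ratio 0.32), Desi2 fell (log2 ratio -0.64) and 6 were not called. That is 12.5% each way, where 23.4% of all tested genes rose and 20.9% fell. The rise of Senp7 was not called at q under 0.01. With the median of genes of like length taken out, the log2 ratio of Senp7 was 0.09 and that of Desi2 was -1.25. On the related lists with 0 falls, an unadjusted p under 0.05 by Cuffdiff gave 1 fall each among the non-receptor phosphatases (Ptpn7) and the docking partners (Sirpa), both named after their values were seen, and 0 on the others. On the related lists with 0 rises it gave 0.

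**Figure D5:**
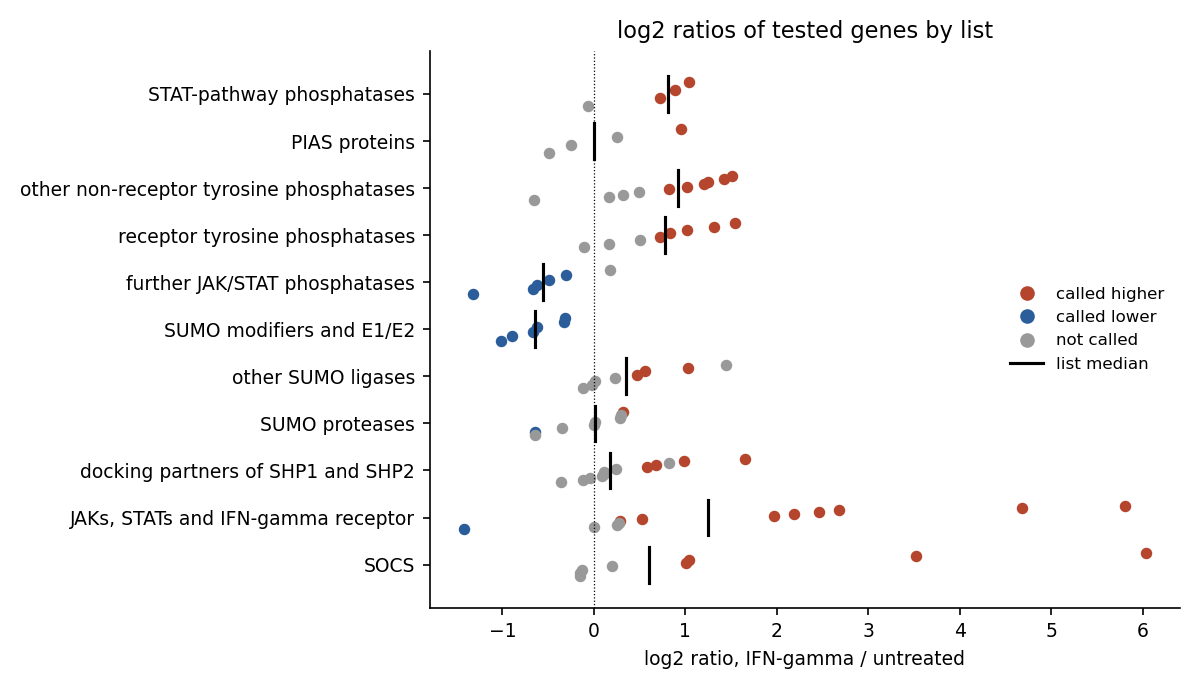
Log2 ratio (x axis, IFN-gamma over untreated) of each tested gene of the 2 member families and 9 related lists (rows), coloured by call, with the list median as a black bar. The SUMO modifiers and their enzymes all lie below 0, with a median of -0.64, and the PIAS genes lie on both sides of it, with a median of 0.00.

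Of the 78 tested genes on the related lists, those with the values nearest to each member were found by distance in log2 FPKM over the 2 group values. Ptpn6 was nearest to Ptprm (22.1 FPKM in IFN-gamma-treated cells and 12.4 FPKM in untreated cells), at a distance of 0.24. Ptpn2 was nearest to Il6st, a receptor chain listed at 20.97 FPKM in IFN-gamma-treated cells and 11.9 FPKM in untreated cells, at a distance of 0.07. Il6st was not called (test score 0.56, q = 0.168 in the authors' deposited table), although its log2 ratio of 0.82 was above that of Ptpn2. Ptpn11 was nearest to Stat6, Pias1 to Ptpn4, Pias3 to Tyk2, Ptpn1 to Acp1, and Pias2 and Pias4 both to Desi2, at distances from 0.16 to 0.44. Likeness over a pair of values says little about a gene's pattern.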

How the data were processed

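The 6 libraries (3 of IFN-gamma-treated and 3 of untreated B16F10.9 cells) were made with the Illumina TruSeq RNA kit, version V2, per the labels' protocols. The submitters' processing notes name GRCm38, TopHat2 (2.0.11), Cuffdiff and Cufflinks (2.2.1). Their parameters and the annotation release are not given in the sources at hand. The deposited FPKM values are 1 per gene and group, and the deposited table also holds a p-value, a q-value and a test score by the authors, per the file headers. A title line speaks of infected and uninfected samples, while the sample cells name B16 and IFN, which were followed. The deposited log2 ratio by the authors is infinite for some genes and was recomputed here from FPKM.

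Because the table gives group values only, the planned branch for such tables was used: the authors' q under 0.05 as the call, with no new test. Members, lists, alternatives and the naming rule were chosen with earlier results of these data known. Named genes were the 8 members and, per related list, up to 4 called genes of at least 1 FPKM with the largest ratios; others are given as nearest neighbours, shared loci or markers. Not every gene this rule picks is reported here. The length of a gene is that of its longest transcript in GENCODE M21 (GRCm38), found for 98.2% of tested genes. The length trend is the median over the 501 genes nearest in length among tested genes of at least 1 FPKM. Alternatives were q under 0.01, a 2-fold minimum, p-values adjusted anew over genes of at least 1 FPKM, pseudocounts of 0.1 and 1, and 2 kinds of centring. The adjustment and the running median were tested on simulated data. Python 3.11.15, pandas 2.3.3, numpy 2.4.6 and matplotlib 3.10.9 were used.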

Additional observations from a re-analysis of the deposited data

How the results depend on the processing

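The direction of all 8 ratios held under every alternative run: both pseudocounts, centring on genes of at least 1 FPKM or of at least 5 FPKM, the length trend and, where a locus was shared, summed FPKM (the centring on 5 FPKM and the summed loci were chosen after seeing the data). With q under 0.01 or with p-values adjusted anew, the count of 4 rises and 0 falls among the members was the same. Where a call also needed a 2-fold change, 1 member (Ptpn6) remained, as Ptpn2, Ptpn11 and Pias1 had log2 ratios of 0.73, 0.89 and 0.95, all under 1. That rule also left 20 of 31 rises and 3 of 13 falls over the 9 related lists. No paired analysis was possible because the table has 1 value per group and no replicate columns, and leaving out each replicate could not be run for the same reason. Read depth is unknown, so its effect on the genes without a call cannot be given.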

Other observations

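The PTP4A phosphatases, small membrane-bound tyrosine phosphatases linked to growth and invasion, were on none of the lists and were chosen after their values were seen. Ptp4a3 stood at 8.54 FPKM in IFN-gamma-treated cells, against 21.6 FPKM in untreated cells, and Ptp4a2 at 60.9 FPKM in IFN-gamma-treated cells, against 97.0 FPKM in untreated cells. Both fell (q = 0.000187 and q = 0.00469 in the authors' deposited table), while Ptp4a1, at 98.4 FPKM in IFN-gamma-treated cells and 88.1 FPKM in untreated cells, was not called. Ptp4a3 has a transcript of 6459 nt, in a length range where the median ratio of genes was above 0.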
